A study of Mus musculus with 8 samples.

Results

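The genes described here encode the machinery by which cells show peptides to T cells: the class I and class II molecules of the mouse major histocompatibility complex (MHC, called H2 in the mouse), the subunits of the immunoproteasome and its activators, and the factors that load peptides. They were chosen by name, as the non-control probes whose gene name in the array files equals one of 32 symbols. Of these 32, 30 had a probe, through 39 probes, out of 30139 gene names on the array. H2-L and H2-Q6 had no probe under that name, so their expression was not analysed here. Of the 30, 28 were tested, as their signal was well above background on all 4 arrays of WT or of CKO; Ciita, the class II transactivator, was well above background on 0 of its 8 arrays, and Erap1, an aminopeptidase that trims class I peptides, on 3 of 4 arrays in each genotype.

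RNA of whole hippocampus from adult C57BL/6 mice was measured on 1-colour Agilent arrays. All mice carried 2 floxed (loxP-flanked) copies of Ctcf, the gene of a zinc-finger protein that organises chromatin loops. Control mice (WT, Ctcf loxP/loxP; Camk2a-Cre negative) had no Cre recombinase, and conditional knockout mice (CKO, Ctcf loxP/loxP; Camk2a-Cre positive) had Cre under the promoter of Camk2a, which is active in excitatory neurons of the forebrain. Each sample was a pool of RNA from 3 mice, with 3 pools per genotype. The pools of a number were matched between genotypes: 2 females with 1 male of 19 to 23 weeks in pool 1, 3 females of 18 to 19 weeks in pool 2, and 3 males of 15 to 17 weeks in pool 3. Pool 1 of each genotype was run on 2 arrays, which were averaged. All mice had gone through behavioural tests. Only CKO mice carried Cre, so the loss of Ctcf and the presence of Cre cannot be told apart, and in RNA of whole tissue fewer cells of a type and less RNA per cell cannot be told apart.

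Class I molecules consist of a heavy chain and beta-2-microglobulin; nearly all nucleated cells make them, and they carry peptides cut by the proteasome and pumped into the endoplasmic reticulum by the TAP transporter. Class II molecules are made by professional antigen-presenting cells; in the brain these are mainly macrophages at the borders, and microglia show little class II at rest. Interferon gamma raises both sets, through transactivators (Nlrc5 for class I, Ciita for class II) and through factors that bind the promoters directly. Class I molecules in neurons are also known for a part in the refinement of synapses.

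Values are log2 of the processed signal relative to the 75th percentile of the array, so that 1 unit is a doubling, and differences are CKO minus WT. Signal at the 75th percentile ran from 2112 to 5104 over the 8 arrays, and 59.2% to 66.0% of spots were well above background. The dimmest array was the second of WT pool 1, which correlated with its mate at r = 0.953 across genes, against 0.989 for the 2 arrays of CKO pool 1. Ctcf, the targeted gene, measured 0.83, 1.12 and 1.04 in WT pools 1, 2 and 3 and 0.18, 0.16 and 0.05 in the CKO pools, a difference of -0.87 (SE 0.13). Every CKO pool was lower than every WT pool, with an adjusted p of 0.142 (limma, Benjamini-Hochberg over 18334 genes) and of 0.0292 with the pool number as a block.

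Of the 28 genes tested, 0 passed an adjusted p of 0.05, against 0.0436% of all genes (8 of 18334), and 0 passed in the fit that blocked on pool number, against 0.562% (103 genes). At an unadjusted p under 0.05, limma gave 1 member, Ifi30, against 5.48% of all genes, and 3 members with the block (H2-D1, H2-Oa and Ifi30), against 8.33%. The lowest adjusted p of a member was 0.755. In mean, 23 of 28 members were higher in CKO and 5 lower; 49.4% of all genes were higher. The members were read from the same 6 pools and are not independent of each other.

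The pool numbers gave different directions. In pool 1 and in pool 2 all 8 class I genes tested were higher in CKO, and in pool 3 only H2-D1 and H2-Q4 were. H2-Q4 counted as higher by only 0.0045 in pool 2 and 0.0003 in pool 3. Of the 9 class II genes tested, 7 were higher in pool 1, 8 in pool 2 and 2 in pool 3. Over all genes, 45.7% were higher in CKO in pool 1, 57.8% in pool 2 and 46.2% in pool 3. Of the 28 members, 14 were higher in pools 1 and 2 and lower in pool 3, a pattern shown by 8.45% of all genes. Another 6 were higher in all 3 pool numbers, as 14.1% of all genes were. CKO pool 2 was the highest of the 6 pools for 20 members (11.3% of all genes), and CKO pool 3 was the lowest for 13 (12% of all genes). Pool 2 lay on slide 1 and pool 3 on slide 2, and these pools also differed in sex and age, which cannot be told apart.

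**Figure D1:**
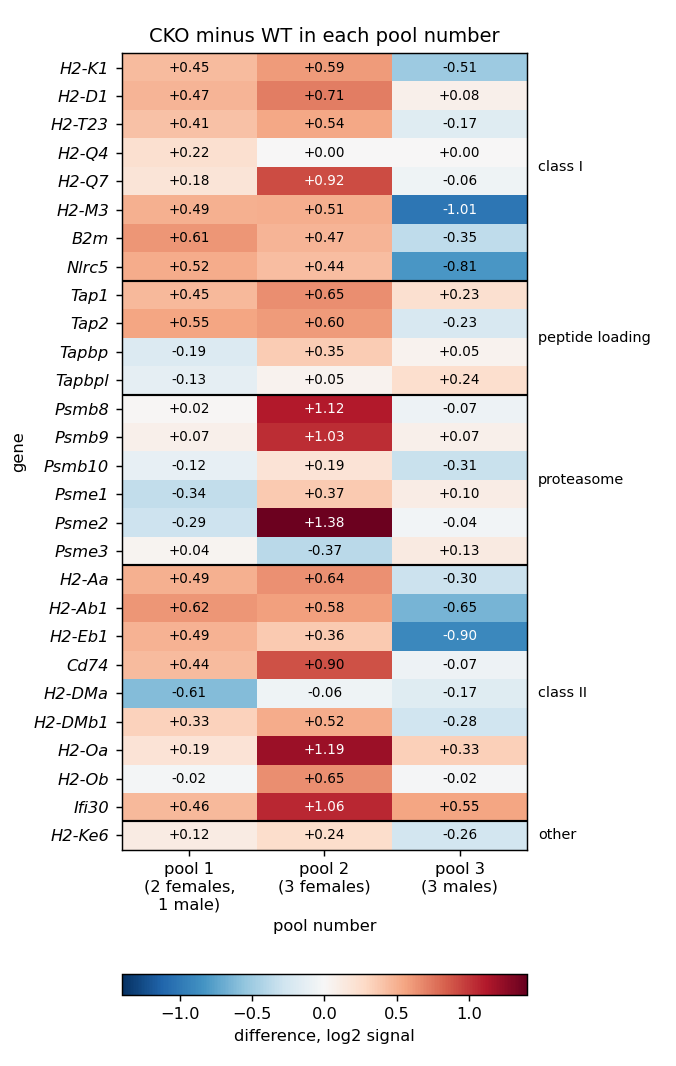
Heat map of the log2 difference, CKO minus WT, of each of the 28 genes tested (rows, by role) in each pool number (columns); red is higher and blue lower in CKO, with the value printed. Class I genes are red in pools 1 and 2, apart from H2-Q4, which is near 0 in pool 2. Of the 8, 6 are blue in pool 3, where H2-M3 reaches -1.01.

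Class I heavy chains, their partner B2m and the transactivator Nlrc5 were higher in CKO in pools 1 and 2 and mostly lower in pool 3. Their median difference was 0.21 over 8 genes, beside -0.0032 over all genes, and 0 of 8 passed the test. The mean over the 8 genes, relative to each gene's WT mean, was -0.16, 0.12 and 0.04 in WT pools 1, 2 and 3 and 0.26, 0.65 and -0.32 in CKO pools 1, 2 and 3. The lowest and the highest of the 6 pools were therefore both CKO pools. Without CKO pool 2 the median was 0.035, without CKO pool 3 0.46 and without WT pool 1 0.065, and with CKO against WT in pool 1 alone the mean difference was 0.30 on the first arrays (slide 1) and 0.54 on the second (slide 2).

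H2-K1 encodes the heavy chain of H2-K, a classical molecule that presents peptides to CD8 T cells. Its signal was 1.65, 2.01 and 2.02 in WT pools 1, 2 and 3 and 2.10, 2.60 and 1.51 in the CKO pools. CKO pools 1 and 2 lay above all WT pools and CKO pool 3 below them, a mean difference of 0.18 (SE 0.26, adjusted p = 0.999) with values that overlap. H2-D1 encodes the other classical heavy chain of this strain. It measured 2.07, 2.18 and 1.94 in WT and 2.54, 2.89 and 2.01 in CKO. CKO was higher in every pool number, by 0.47, 0.71 and 0.08; the groups overlap only through CKO pool 3, which lay below WT pools 1 and 2. The mean difference of H2-D1 was 0.42 (SE 0.21), a 1.34-fold change, with an unadjusted p of 0.0793 and an adjusted p of 0.978; with the block the adjusted p was 0.403.

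B2m, the light chain shared by all class I molecules, measured 2.27, 2.89 and 2.82 in WT and 2.89, 3.36 and 2.47 in CKO. The differences by pool number were 0.61, 0.47 and -0.35, with a mean of 0.25 (SE 0.25). WT pool 1 was the lowest and CKO pool 2 the highest of the 6. H2-T23 encodes Qa-1, a non-classical molecule that is a ligand of inhibitory receptors on natural killer cells. It measured 1.18, 1.42 and 1.29 in WT and 1.59, 1.97 and 1.12 in CKO, a difference of 0.26 (SE 0.21), with CKO pool 3 below every WT pool. H2-Q7, a gene of the Qa-2 antigen, measured 2.85, 2.36 and 2.36 in WT and 3.02, 3.28 and 2.30 in CKO, a difference of 0.34 (SE 0.25) that came mostly from pool 2, at 0.92. Both WT pools 2 and 3 and CKO pool 3 were low for H2-Q7, and WT pool 1 lay among the high pools.

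H2-M3, which presents N-formylated peptides, was dim, with -3.78, -3.19 and -3.15 in WT and -3.29, -2.68 and -4.16 in CKO. Its differences of 0.49 and 0.51 in pools 1 and 2 and -1.01 in pool 3 averaged to -0.0039 (SE 0.37). Nlrc5, the class I transactivator, was also dim, with -5.08, -4.36 and -4.42 in WT and -4.56, -3.93 and -5.23 in CKO. Its mean difference was 0.048 (SE 0.37), and its sign turned with scaling to the array median. By the probes used, CKO pool 2 was the highest and CKO pool 3 the lowest of the 6 pools for both genes. A second Nlrc5 probe, also dim and left out by the filter, did not show this order. It measured -4.63, -5.45 and -4.93 in WT and -4.77, -5.15 and -4.91 in CKO. H2-Q4 measured 5.89, 6.01 and 5.78 in WT and 6.11, 6.01 and 5.78 in CKO, a difference of 0.075 (SE 0.15), and was nearly level between genotypes in pools 2 and 3.

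Class I genes are close relatives of each other, and probes can bind transcripts of more than 1 of them. The second H2-K1 probe and the H2-T23 probe share a run of 29 bases, shown in capitals in 30-base stretches of the probes, 5′ to 3′:
H2-K1 second probe: TGGAGCTGTGGTGGCTTTTGTGATGAAGAt
H2-T23 probe: TGGAGCTGTGGTGGCTTTTGTGATGAAGAg
This second H2-K1 probe measured 1.17, 1.45 and 1.22 in WT and 1.66, 2.09 and 1.04 in CKO, a difference of 0.32. It orders the pools as the first H2-K1 probe does at CKO pools 2 and 3, the highest and the lowest. The H2-Q4 probe shares runs of 16 or more bases with 39 of 32851 promoter windows of the RefSeq table; the run found in 29 of them is in capitals:
H2-Q4 probe: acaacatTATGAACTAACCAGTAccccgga
Whether other transcripts add to the values under the name H2-Q4 was not tested. Without H2-Q4, a choice made after its values were seen, the class I median was 0.25. The H2-Q7 probe shares such runs with 2 probes named H2-K2, and the H2-D1, B2m and first H2-K1 probes with no other probe on the array.

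Class I promoters are known for a set of short elements, which were looked for here by their letters. Windows of 250 bases before the start site were read from the RefSeq table of build GRCm38.p6, which holds 27025 genes and 25 of the 32 members. Its 8 class I windows include H2-Q6, which was not measured, and lack Nlrc5, so they are not the same 8 genes as those tested. Both strands were searched, for the consensus kappa B element (bound by NF-kappa B), and for the letters TTTCNNTTC for an element of interferon regulatory factors (IRF), TGNTGANG for an X2-like element (bound by CREB family proteins, beside the RFX complex) and CCAATC for the Y box (bound by NF-Y). The 180 bases before the start site of 4 class I genes show these matches in capitals, in their order from 5′ to 3′:
H2-K1, chr17:34000334-34000513, minus strand: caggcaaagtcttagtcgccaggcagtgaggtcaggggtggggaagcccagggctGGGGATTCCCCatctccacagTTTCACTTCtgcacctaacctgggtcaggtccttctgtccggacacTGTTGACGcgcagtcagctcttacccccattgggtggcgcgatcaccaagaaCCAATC
H2-D1, chr17:35262914-35263093, plus strand: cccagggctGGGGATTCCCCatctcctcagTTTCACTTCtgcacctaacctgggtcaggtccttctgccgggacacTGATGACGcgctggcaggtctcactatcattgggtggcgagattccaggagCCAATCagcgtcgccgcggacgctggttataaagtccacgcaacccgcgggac
H2-Q7, chr17:35438975-35439154, plus strand: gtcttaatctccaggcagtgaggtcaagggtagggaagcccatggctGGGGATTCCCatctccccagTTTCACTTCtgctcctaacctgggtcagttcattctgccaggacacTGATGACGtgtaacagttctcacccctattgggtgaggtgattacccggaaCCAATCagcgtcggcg
B2m, chr2:122147507-122147686, plus strand: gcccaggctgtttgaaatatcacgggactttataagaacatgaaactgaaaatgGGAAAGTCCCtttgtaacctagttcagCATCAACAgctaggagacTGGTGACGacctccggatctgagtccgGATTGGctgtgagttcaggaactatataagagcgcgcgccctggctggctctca
Kappa B matches of both strands overlap in H2-K1 and H2-D1. In H2-K1 the matches begin 125 (kappa B), 104 (IRF), 58 (X2-like) and 6 (Y box) bases before the start site, and in H2-D1 and H2-Q7 they follow in the same order. B2m holds a kappa B match at 126, X2-like matches at 99 and 81, and a Y box on the opposite strand at 54. The kappa B element was found in 7 of 8 class I windows and 8.23% of all genes, the IRF letters in 6 of 8 against 7.30%, the X2-like letters in 5 of 8 against 15.1% and the Y box letters in 7 of 8 against 16.6%. H2-K1, H2-D1 and H2-Q7 were the only 3 of the 8 with all 4, and of the 4 H2-T23 had the Y box alone. The consensus core of the CTCF motif was in the window of 0 of the 25 members and of 0.585% of all genes. The interferon-stimulated response element was searched separately, by a longer set of letters than the IRF letters. These longer letters were in 2 of 25 members, H2-T23 and B2m, and 3.46% of all genes. H2-K1, H2-D1 and H2-Q7 held the IRF letters without the longer ones. The count therefore does not show that they lack an element that responds to interferons. The GAS letters TTCNNNGAA, of another element known to respond to interferons, were in 2 of 25 members and 8.13% of all genes.

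Of the factors that load class I molecules, 4 of 4 tested were higher in mean in CKO, with a median difference of 0.19, and 0 passed the test. Tap1 and Tap2 encode the subunits of the peptide transporter. Tap1 was dim, with -3.79, -3.76 and -4.27 in WT and -3.34, -3.10 and -4.05 in CKO; CKO was higher in every pool number, by 0.45, 0.65 and 0.23, a mean of 0.44 (SE 0.29, adjusted p = 0.999). Tap2 measured -0.53, -0.35 and 0.02 in WT and 0.02, 0.25 and -0.20 in CKO, a difference of 0.31 (SE 0.19). The genotypes overlapped in both genes, through CKO pool 3 in Tap1 and through CKO pools 1 and 3 in Tap2. Tapbp (tapasin, which bridges class I to the transporter) differed by 0.069 (SE 0.18) and Tapbpl, a tapasin-like peptide editor, by 0.055 (SE 0.21), with pool values on both sides of 0. Tapbpl turned sign with the series value table, at -0.0027.

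Of the immunoproteasome subunits and PA28 activators, Psmb8, Psmb9 and Psme2 differed most in pool 2, where CKO was higher. Their median difference was 0.20 over 6 genes, 4 higher and 2 lower, and 0 passed the test. The mean difference by pool number was -0.10, 0.62 and -0.021, and the median in pool 3 had the opposite sign, at 0.012. Psmb8 (LMP7), which replaces a catalytic subunit of the standard proteasome, measured 0.15, -0.46 and -0.40 in WT and 0.17, 0.65 and -0.47 in CKO. Psmb9 (LMP2), another such subunit, measured -0.45, -0.95 and -0.97 in WT and -0.38, 0.09 and -0.91 in CKO. For both genes CKO pool 2 stood above all other pools, by differences of 1.12 and 1.03 from WT pool 2, while the differences in pools 1 and 3 were 0.02 and -0.07 for Psmb8 and 0.07 and 0.07 for Psmb9. The mean differences were 0.35 (SE 0.29) for Psmb8 and 0.39 (SE 0.26) for Psmb9.

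Psmb10, the third inducible subunit, measured 2.24, 2.11 and 2.43 in WT and 2.12, 2.30 and 2.12 in CKO, a difference of -0.079 (SE 0.13), with its largest difference, -0.31, in pool 3. Psme1, the alpha subunit of PA28, which opens the proteasome, measured 3.36, 2.65 and 2.74 in WT and 3.02, 3.02 and 2.84 in CKO, a difference of 0.044 (SE 0.19) whose sign turned with scaling to the array median. Psme2, the beta subunit, measured 2.94, 1.16 and 2.35 in WT and 2.65, 2.54 and 2.31 in CKO, so its 0.35 (SE 0.38) rests on WT pool 2. Without WT pool 2 the difference was -0.15, and a second Psme2 probe gave -0.086. Psme3, which forms a PA28 of the nucleus outside antigen presentation, differed by -0.071 (SE 0.21), and by -0.37 in pool 2.

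Psmb9 and Tap1 lie head to head, with 225 bases between their start sites in GRCm38.p6. The interval is shown on the strand of Tap1, with the Y box letters in capitals, because both genes take their promoters from it:
Tap1 and Psmb9, chr17:34187331-34187555, plus strand: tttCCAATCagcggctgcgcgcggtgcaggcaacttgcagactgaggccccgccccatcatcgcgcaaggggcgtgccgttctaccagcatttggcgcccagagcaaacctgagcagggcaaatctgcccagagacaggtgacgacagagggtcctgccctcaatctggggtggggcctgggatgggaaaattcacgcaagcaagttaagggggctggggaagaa
Of the 4 element types it held the Y box alone, beginning 222 bases before the Tap1 start. Tap1 and Psmb9 were both highest in CKO pool 2, and in pool 1 their differences were 0.45 and 0.07.

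**Figure D2:**
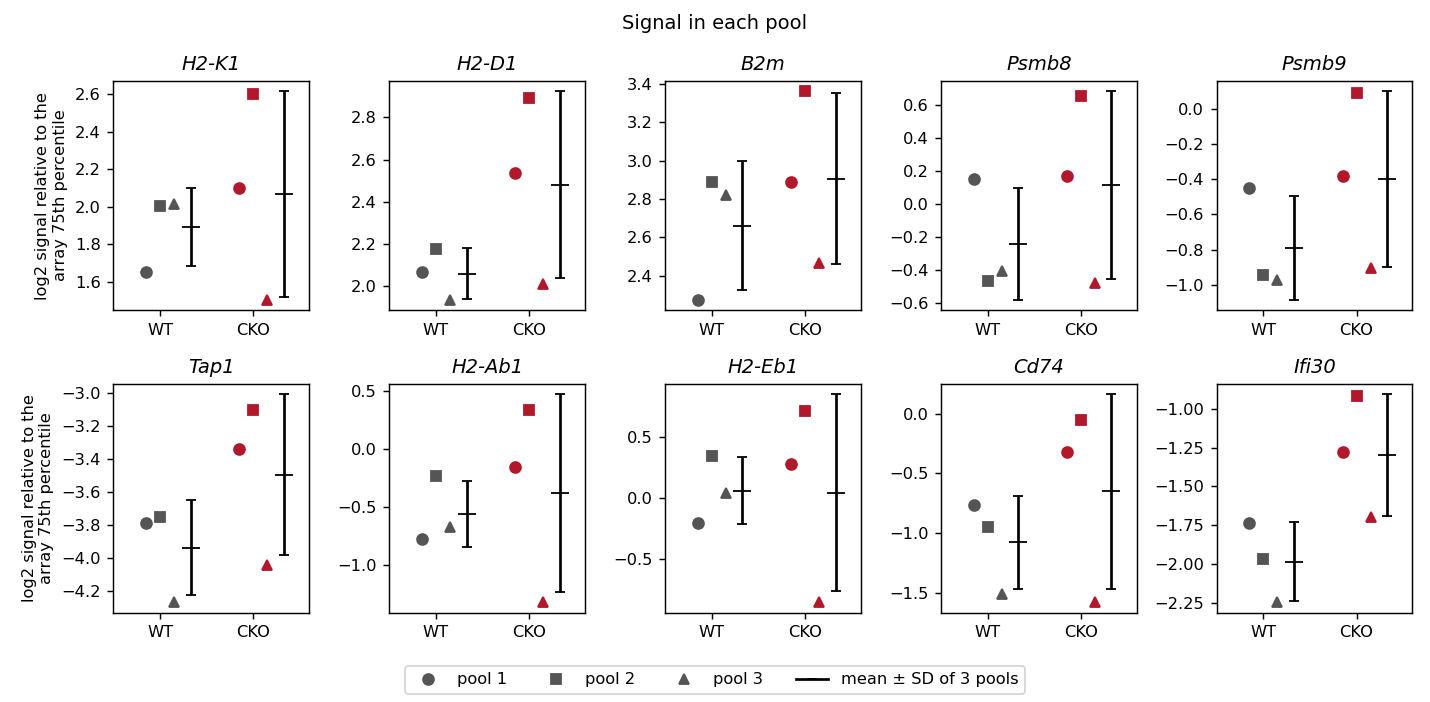
Log2 signal relative to the 75th percentile of the array (y axes, each with its own range) for 10 genes in WT (grey) and CKO (red), 1 symbol per pool, with the mean ± SD of 3 pools beside them. CKO pool 2 (square) is the highest point in each of the 10 panels, and CKO pool 3 (triangle) lies below all other pools in H2-K1, Psmb8, H2-Ab1, H2-Eb1 and Cd74.

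Class II genes were higher in CKO in pools 1 and 2 and lower in pool 3 for most members. The mean over the 9 genes tested was 0.15, 0.06 and -0.22 in WT pools 1, 2 and 3 and 0.42, 0.71 and -0.39 in CKO, so that CKO pools 1 and 2 lay above and CKO pool 3 below all WT pools. Their median difference was 0.20, with 7 higher, 2 lower and 0 past the threshold. Leaving out CKO pool 2 gave a median of 0.0034 and leaving out CKO pool 3 gave 0.65. Without WT pool 1 or 2 it was 0.35 or 0.34, and without CKO pool 1 or WT pool 3 it was 0.13. On the 2 arrays of pool 1 the mean difference was 0.37 on slide 1 and 0.16 on slide 2.

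H2-Aa encodes the alpha chain of I-A, the class II molecule that this strain puts on its cells. It measured -1.006, -1.001 and -1.67 in WT and -0.51, -0.36 and -1.97 in CKO, a difference of 0.28 (SE 0.41). H2-Ab1, the beta chain of I-A, measured -0.77, -0.23 and -0.67 in WT and -0.16, 0.34 and -1.32 in CKO, a difference of 0.18 (SE 0.38). Both chains had CKO pools 1 and 2 above every WT pool and CKO pool 3 below every WT pool. H2-Eb1, the beta chain of I-E, whose alpha partner C57BL/6 mice do not make, measured -0.21, 0.35 and 0.04 in WT and 0.28, 0.71 and -0.86 in CKO, a difference of -0.018 (SE 0.36). CKO pool 2 was again the highest and CKO pool 3 the lowest.

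The 2 H2-Ab1 probes overlap by 51 bases and differ at 1 base, T51C, counted from the 5′ end of the probe used; they are therefore not independent readings of the gene, and the base is in capitals in the stretches shown:
H2-Ab1 probe used: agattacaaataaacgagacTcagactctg
H2-Ab1 other probe: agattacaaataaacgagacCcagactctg
The other probe gave -1.01, -0.23 and -0.87 in WT and -0.40, 0.18 and -1.47 in CKO, a difference of 0.14.

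Class II promoters are known for an X box and a Y box at a set spacing. The 110 bases before the start sites of 3 class II genes on chromosome 17 (GRCm38.p6, RefSeq) show the X2-like and Y box letters in capitals:
H2-Aa, chr17:34287824-34287933, minus strand: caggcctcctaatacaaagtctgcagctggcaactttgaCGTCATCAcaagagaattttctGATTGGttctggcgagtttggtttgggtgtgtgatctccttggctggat
H2-Eb1, chr17:34305757-34305866, plus strand: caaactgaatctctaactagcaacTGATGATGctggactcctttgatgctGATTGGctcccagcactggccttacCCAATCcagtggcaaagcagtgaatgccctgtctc
H2-DMb1, chr17:34153081-34153190, plus strand: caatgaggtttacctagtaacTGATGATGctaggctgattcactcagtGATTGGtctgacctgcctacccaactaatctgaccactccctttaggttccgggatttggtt
The X2-like match began 71, 86 and 89 bases before the start site in H2-Aa, H2-Eb1 and H2-DMb1, and a Y box followed at 49, 60 and 62. H2-Eb1 had another Y box at 35, and H2-Aa had a kappa B match at 131, outside the bases shown. The Y box letters were in 6 of 7 class II windows and 16.6% of all genes, the X2-like letters in 3 of 7 against 15.1%, and the IRF letters in 0 of 7. A match describes letters only, and whether the X2-like match is the same element in the 3 genes was not tested.

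Cd74 is the invariant chain, which holds class II molecules until they reach the endosome. It measured -0.77, -0.95 and -1.51 in WT and -0.32, -0.05 and -1.58 in CKO. CKO pools 1 and 2 were above all WT pools and CKO pool 3 was below them, a difference of 0.42 (SE 0.38, adjusted p = 0.999; 0.611 with the block) that ran from 0.12 to 0.89 with 1 pool left out. Ifi30 (GILT), a thiol reductase that unfolds antigens in endosomes, measured -1.74, -1.97 and -2.25 in WT and -1.28, -0.91 and -1.70 in CKO. It was the only member whose CKO pools all lay above all WT pools, as 5.73% of all genes did, and the gap was narrow, since CKO pool 3 stood just above WT pool 1. Its difference was 0.69 (SE 0.24), a 1.61-fold change, higher in 3 of 3 pool numbers, with an unadjusted p of 0.0191 and an adjusted p of 0.755 in limma. With the block the adjusted p was 0.209, and over the alternatives it ran from 0.142 to 0.9999.

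H2-DM helps peptides replace the invariant chain fragment, and H2-O restrains H2-DM; of their 4 chains, H2-DMa was lower in mean in CKO and the other 3 higher, and 0 passed the test. H2-Oa measured -2.49, -3.09 and -3.15 in WT and -2.30, -1.90 and -2.81 in CKO, a difference of 0.57 (SE 0.29, adjusted p = 0.978), higher in 3 of 3 pool numbers. H2-DMa measured 0.50, -0.00069 and -0.19 in WT and -0.10, -0.06 and -0.36 in CKO, a difference of -0.28 (SE 0.20), lower in 3 of 3. In H2-Oa only CKO pool 3 lay within the WT range, and in H2-DMa CKO pools 1 and 2 did. H2-DMb1 measured -1.48, -1.42 and -1.47 in WT and -1.15, -0.90 and -1.75 in CKO, a difference of 0.19 (SE 0.23). H2-Ob, dim at -4.68 in mean in WT, differed by 0.20 (SE 0.26), and H2-Ke6, a dehydrogenase (also called Hsd17b8) named for its place in the MHC region, by 0.034 (SE 0.14), a sign that turned with scaling to the array median.

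**Figure D3:**
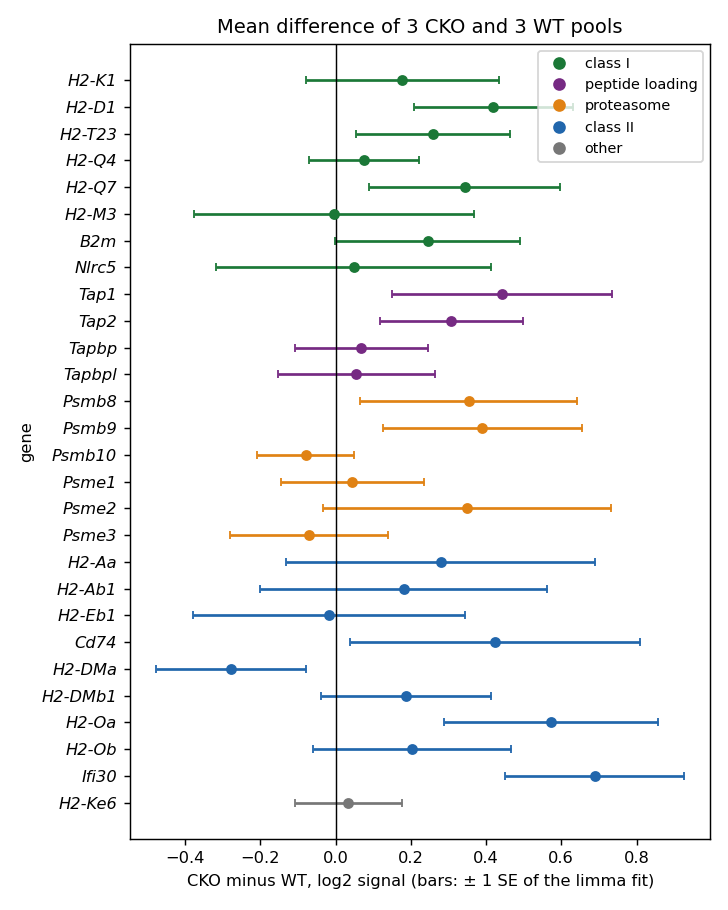
Mean log2 difference, CKO minus WT (x axis), of the 28 genes tested, with bars of ± 1 SE from limma over 3 pools per genotype, coloured by role. Ifi30 lies farthest from 0, at 0.69, and H2-DMa lowest, at -0.28; 0 of the 28 passed the adjusted threshold.

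The next list joins genes of interferon gamma signalling (receptor chains, kinases, an inhibitor and interferon regulatory factors) with the RFX, CREB and NF-Y factors that bind MHC promoters. Of its 16 genes tested, 9 were higher and 7 lower, with a median of 0.019 and 0 past the threshold; Ifng and Rfx5 were not well above background on any array. Irf8, a factor of microglia and other myeloid cells, measured -2.41, -2.29 and -2.49 in WT and -1.97, -1.46 and -2.10 in CKO, a difference of 0.56 (SE 0.21, adjusted p = 0.815). Its CKO pools lay above all WT pools. Nfyc, a subunit of the Y box factor NF-Y, differed by -0.29 (SE 0.14), Nfya by 0.26 (SE 0.17), with its CKO pools above all WT pools, and Irf9 by 0.31 (SE 0.22). Irf1 differed by -0.15 (SE 0.20).

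Interferon-stimulated genes had 16 of 18 tested higher in CKO, a median of 0.23 and 0 past the threshold. Their mean difference was 0.12, 0.66 and -0.17 in pools 1, 2 and 3. Ifi27l2a measured -0.62, -1.11 and -1.31 in WT and 0.0094, 0.32 and -0.61 in CKO, a difference of 0.92 (SE 0.27) with an adjusted p of 0.575, and of 0.0699 with the block. Its CKO pools lay above all WT pools, with CKO pool 3 barely over WT pool 1. Bst2 (tetherin, which holds viruses at the cell surface) differed by 0.41 (SE 0.21), Stat2 by -0.24 (SE 0.13), with its CKO pools below all WT pools, and Iigp1, an interferon-induced GTPase, by 0.33 (SE 0.24).

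The housekeeping side of the pathway was lower in CKO in most genes by mean. Of 13 loading chaperones and constitutive proteasome subunits, 4 were higher and 9 lower, with a median of -0.074 and 0 past the threshold. Over all genes, 49.4% were higher. In pools 1, 2 and 3, 4, 7 and 4 of the 13 were higher, with medians of -0.074, 0.14 and -0.086. In 3 of the 13, Psmb5, Psmb6 and Psma5, every CKO pool was below every WT pool, as in 5.63% of all genes. Psmb5, which Psmb8 replaces in the immunoproteasome, differed by -0.22 (SE 0.12) and Psma5 by -0.18 (SE 0.11); Psmb6, named after its values were seen, differed by -0.087 (SE 0.11). The chaperone Calr (calreticulin) differed by 0.22 (SE 0.19) and Psma6 by 0.13 (SE 0.11). Of 6 genes of endosomal proteolysis and class II trafficking, 4 were higher, with a median of 0.13 and 0 past the threshold; Ctsd, an endosomal protease, differed by 0.35 (SE 0.17), with its CKO pools above all WT pools, and Ctss, the protease that trims the invariant chain, by 0.24 (SE 0.21). Cd86, a costimulatory ligand, differed by 0.42 (SE 0.23).

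Markers of the cells that could carry these genes were read in the same pools, and their differences by pool number varied between cell types. The 14 microglial markers had 9 higher and 5 lower in CKO, a median of 0.18, and mean differences of -0.079, 0.63 and 0.019 in pools 1, 2 and 3 (median -0.025 in pool 3); the sum of their linear signals ran from 89.9 to 150 times the 75th percentile in WT and from 99.996 to 137 in CKO. The 10 choroid plexus markers were all higher in CKO in mean, with a median of 0.81 and differences of 2.02, 0.46 and -0.17, and their sum ran from 53.4 to 121 in WT and from 112 to 154 in CKO. WT pool 1 stood lowest in that list, at -1.09 relative to the WT mean. The part of microglial or choroid plexus RNA in the members' values was not tested.

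Border macrophage markers gave 2 higher and 3 lower of 5 tested, a median of -0.050 and mean differences of 0.15, -0.0083 (median 0.0019) and -0.19 in pools 1, 2 and 3. Dendritic cell markers gave 1 of 3 higher and a median of -0.032, B cell markers 2 of 2 and 0.17, and T and NK cell markers 1 of 3 and -0.028. Cd163, Xcr1, Ccr7, Ms4a1, Cd3d, Cd3g and Cd8a were not well above background on any array. Endothelial markers gave 5 of 7 higher with a median of 0.030. Astrocyte markers gave 3 higher and 2 lower with a median of 0.025, and markers of hippocampal neurons 3 higher and 4 lower with a median of -0.082. None of the markers in these lists passed the threshold in limma. With the pool number as a block, 1 astrocyte marker (Gfap, higher by 0.68) and 1 neuronal marker (Wfs1, at -0.91) did.

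**Figure D4:**
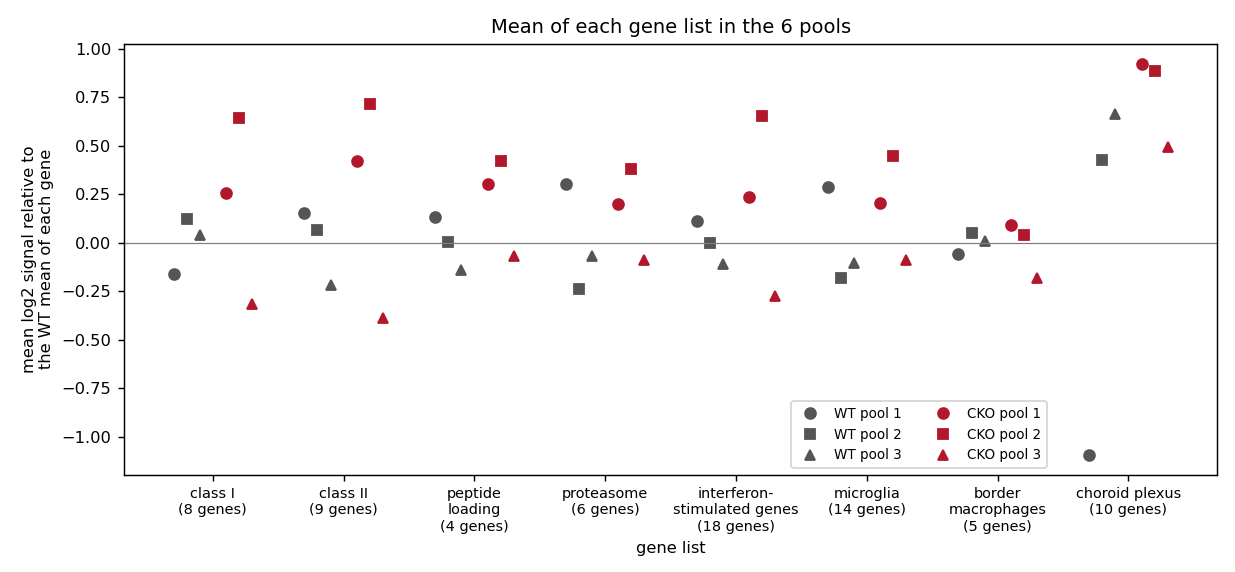
Mean log2 signal of each gene list relative to the WT mean of each gene (y axis) in the 3 WT pools (grey) and the 3 CKO pools (red), 1 symbol per pool number. CKO pool 2 is highest and CKO pool 3 lowest for class I, class II and the interferon-stimulated genes, while WT pool 1 is lowest for the choroid plexus.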

How the data were processed

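The authors deposited 1 scanner file per array, made with Agilent Feature Extraction (version 11.5 in the submitters' processing notes, 11.5.1.1 and build mm9 per the file headers). Its processed signal is a spot intensity, which per the file headers had the background subtracted within the array and no step between arrays; quality flags, another deposited kind of column, were used as filters. The value table of the series, an intensity deposited by the authors, served as an alternative.

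From these, values were computed as log2 of the signal over the array's 75th percentile of non-control spots. Outlier-flagged spots were left out when the spots of a probe were averaged, and the 2 arrays of a pool were averaged. The filter on dim probes kept 23648 of 39429. A gene was read by its brightest probe, members under the file's gene name and other genes through RefSeq accessions (27473 probes), symbols (3540), synonyms (404) or the file's name (7973). The test was limma 3.58.1 in R 4.3.3 (lmFit, then eBayes with a trend), 3 pools against 3 and two-sided, with p-values adjusted by Benjamini-Hochberg over 18334 genes. The p-values measure the spread between pools of 3 mice, and the number of pools limits the precision. The procedure was tested on simulated data with independent pools and planted differences larger than that of any member, so smaller differences were not examined. Lists are described by counts and medians, with no test.

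The members and lists were chosen with earlier results of these data known, and the kappa B and CTCF consensus forms after a first search with looser letters. The text names every member, Ctcf and up to 4 genes of each other pathway list by unadjusted p; Irf1, Gfap, Wfs1 and the microglial genes were chosen after their values were seen. Pools of the same number share their sex and age makeup per the labels, so a fit with the pool number as a block was run. Their deviations from the genotype means correlated across genes at r = 0.55, 0.33 and 0.13 in pools 1, 2 and 3. Between other numbers r was at most 0.12, so pool 3 hardly differed from unmatched pools. Alternatives covered scaling, background, the filter on dim probes, slides, probes, arrays and left-out pools.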

Additional observations from a re-analysis of the deposited data

Results flagged for a closer look

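The mean CKO minus WT difference had opposite signs in the female pools (pool 2) and the male pools (pool 3) in 3 of the member lists. It was 0.523 in females and -0.355 in males for class I, 0.649 and -0.168 for class II, and 0.618 and -0.0208 for the proteasome genes, whose median in males was 0.012. In pool 1, of both sexes, the mean differences of these lists were 0.42, 0.27 and -0.10. The class I median in males was -0.26, and the mean there includes the dim genes H2-M3 (-1.01) and Nlrc5 (-0.81). A second Nlrc5 probe, left out by the filter, gave 0.014 in pool 3. The proteasome mean in females includes Psme2 at 1.38, for which a second probe gave 0.11. Over all genes the median difference was 0.053 in pool 2 and -0.029 in pool 3. There was 1 pool of each genotype per sex, so the difference between the sexes was not tested. Between pools 2 and 3, sex, age and slide cannot be told apart. Pool 1 of both genotypes was run on both slides. Its mean differences on slides 1 and 2 were 0.30 and 0.54 for class I, 0.37 and 0.16 for class II, and 0.028 and -0.24 for the proteasome genes.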

How the results depend on the processing

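No member passed the threshold in any of the 19 alternatives, and the lowest adjusted p of a member in any of them was 0.142. The count over all genes (8) was 103 with the replicate block, 125 with the first arrays of pool 1 alone, 108 without the second array of WT pool 1, 5 with quantile scaling, with normexp, with the mean over probes and with probes above background on every array, 3 with the value table, 0 within slide 2, and 0 to 21 with 1 pool left out (21 without WT pool 1, 0 without WT pool 3 or CKO pool 3). The block changed no member's call. Medians with 1 pool left out ran from 0.035 to 0.46 for class I, 0.0034 to 0.65 for class II, 0.12 to 0.29 for peptide loading and 0.011 to 0.41 for the proteasome genes. Within slides 1 and 2 they were 0.40 and 0.081, 0.53 and 0.024, 0.31 and 0.13, and 0.37 and -0.15. Without the second array of WT pool 1 the median was 0.11 for class I and 0.32 for the proteasome genes, with the mean over probes 0.088 for the latter, and with no filter on dim probes 0.31 for peptide loading. Differences turned sign in 16 of 28 members, with none past the threshold. Within slide 2 they were -0.043 for H2-Q7, -0.17 for Tapbp, -0.12 for Psmb8, -0.23 for Psme1, -0.28 for Psme2, 0.037 for Psme3, -0.017 for Nlrc5, -0.013 for H2-Aa, -0.12 for H2-Ob and -0.069 for H2-Ke6. Within slide 1 they were 0.33 for H2-M3, -0.00047 for Tapbpl, 0.0066 for Psmb10 and 0.42 for H2-Eb1, and with the slide as a block 0.034 for H2-M3 and 0.020 for H2-Eb1. Scaling to the median gave -0.010 for Psme1, -0.0062 for Nlrc5 and -0.021 for H2-Ke6. Nlrc5 was -0.037 with first arrays alone, -0.058 with normexp and -0.078 when WT pool 1 was read from its first array, which gave -0.0096 for H2-Ke6. The value table gave -0.0027 for Tapbpl. With 1 pool left out, the ranges were -0.066 to 0.12 for H2-Ke6, -0.015 to 0.79 for H2-Aa, -0.18 to 0.65 for H2-Ab1, -0.35 to 0.43 for H2-Eb1, -0.089 to 0.46 for H2-K1, -0.35 to 0.39 for H2-M3, -0.28 to 0.38 for Nlrc5, -0.15 to 0.0053 for Psmb10, -0.089 to 0.27 for Psme1, -0.15 to 0.74 for Psme2, -0.20 to 0.11 for Psme3, -0.016 to 0.22 for Tapbp and -0.13 to 0.23 for Tapbpl. Among members that kept their sign, leaving out 1 pool moved B2m from 0.018 to 0.46, H2-DMb1 from 0.0034 to 0.43, H2-T23 from 0.055 to 0.48 and H2-DMa from -0.43 to -0.077. The causes were not tested. Erap1 and Ciita were too dim for the filter, and H2-M3, Nlrc5 and H2-Ob were above background on 3 of 4 WT arrays.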

Other observations

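Among the microglial markers, the genes of the complement component C1q and the signalling adaptor Tyrobp had the largest mean differences; they were singled out after their values were seen. C1qa measured 3.62, 2.76 and 2.71 in WT pools 1, 2 and 3 and 3.64, 3.91 and 3.23 in CKO. C1qc measured 2.36, 2.23 and 2.09 in WT and 2.64, 3.25 and 2.33 in CKO, a difference of 0.52 (SE 0.22). For C1qa, C1qb and C1qc CKO was higher in all 3 pool numbers, including pool 3, as 14.1% of all genes were. In pool 1 the differences of C1qa and C1qb were small, at 0.02 and 0.06. Adjusted p-values of C1qa, C1qb and C1qc in limma were 0.969, 0.923 and 0.902. Tyrobp differed by 0.52 (SE 0.23), while Cx3cr1, P2ry12 and Siglech differed by -0.026, -0.19 and -0.18.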
